A study of Mus musculus with 8 samples.

Results

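Cells take up free amino acids and short peptides through membrane carriers of the solute carrier (Slc) families, and the genes of 8 such families are described here in the ileum of the mouse, where the small intestine ends. Members were all array names of the families Slc1a, Slc3a, Slc6a, Slc7a, Slc15a, Slc36a, Slc38a and Slc43a, matched by gene name. This gave 69 of the 35715 gene names on the array, of which 66 are carriers and 3 are transcripts on the opposite strand of a carrier gene (Slc36a1os, Slc6a19os and Slc7a6os). Each gene was read from its probe with the highest mean signal over the 8 arrays.

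The mice were female and carried at Rosa26 the doxycycline-dependent activator rtTA (Rosa26rtTA/+), and a Myc-tagged Tnk1 transgene at Hprt (Hprt Myc-Tnk1tg). TNK1 is a non-receptor tyrosine kinase. One group of 4 received doxycycline by intraperitoneal injection (50 µg per g body weight in 100 µl), the other group of 4 received 100 µl of 0.9% NaCl, and ileum was taken after 24 hours. The question is how gut expression differs once TNK1 is induced. For the saline animals the labels state the same transgenic strain but also name them WT, and these samples include no doxycycline-treated animals that lack the transgene. Neither the animals' age nor whether each array holds a separate animal is given in the labels, so a p-value reflects spread among these samples that may be technical. Rosa26 is active in most cell types, so the labels tie induction to no one cell type of the ileum.

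Absorption of protein in the small intestine runs through the enterocyte, the absorptive cell of the villus. Peptidases at the brush border cut peptides, the peptide carrier Slc15a1 takes up di- and tripeptides with protons, and amino acid carriers of overlapping specificity take up neutral, cationic, anionic and imino acids at the luminal side. Exchangers and facilitators at the basolateral side pass amino acids on to the blood. Several exchangers of the Slc7a family (light chains) reach the membrane only when linked to a heavy chain, Slc3a1 at the brush border or Slc3a2 at the basolateral side. Outside absorption, some of these carriers feed dividing or activated cells, take up neurotransmitters, or release amino acids from lysosomes.

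Levels are log2 processed intensity minus the 75th percentile of the array, so that 0 is the level of a probe at that percentile and a step of 1 is a doubling. Levels of different probes cannot be set against each other, since probes differ in how well they bind. In all, 30485 to 31713 probes were well above background on the doxycycline arrays and 22069 to 23994 on the saline arrays, and the lowest level that counted as well above background was -4.90 to -4.51 against -3.07 to -2.57. Low signals were therefore less often measured in the saline group. All arrays lay on 1 slide, doxycycline in row 1 and saline in row 2, and what belongs to row or to treatment cannot be told apart. Arrays of the same replicate number shared a slide column. The 5′-side Tnk1 probe rose 6.92-fold with doxycycline (adjusted p = 4.16e-04), while the other Tnk1 probe did not pass the threshold (log2 difference -0.45, adjusted p = 0.143). Hprt, where the transgene sits, rose 64.6-fold (4.34 ± 0.14 against -1.67 ± 0.58, SD, n = 4 each, adjusted p = 4.42e-05). The ileal bile acid genes Fabp6 (9.25 against 9.45), Slc10a2 (6.32 against 5.80), Slc51a (6.27 against 6.58) and Slc51b (6.72 against 6.06) were well above background, and the 5 ileal and 12 enterocyte markers held 1 call, a rise of Apob.

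Of the 69 members, 51 were tested, with signal well above background on 4 or more of the 8 arrays, and for 35 of them this held on all 8. A further 3 (Slc1a2, Slc38a11 and Slc7a11) were well above background on 1 to 3 arrays. The remaining 15 were so on no array. They were Slc15a5, Slc36a1os, Slc36a3, Slc38a4, Slc38a5, Slc6a11, Slc6a12, Slc6a15, Slc6a19os, Slc6a2, Slc6a20b, Slc6a3, Slc7a12, Slc7a13 and Slc7a2. Among the tested members, 6 had no saline array with signal well above background, Slc1a6, Slc38a8, Slc6a16, Slc6a17 and Slc7a3 among them, while 0 were so for doxycycline.

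With doxycycline, 9 of the 51 tested members passed the threshold of an adjusted p of 0.05 (limma, Benjamini-Hochberg over all 21342 genes tested), which is 17.6%, where 13.9% of all genes tested passed it. Of these, 6 were higher (11.8% of members, against 5.94% of all genes) and 3 were lower (5.88%, against 7.91%). The rises described here are those of Slc7a15, Slc43a3, Slc6a14, Slc7a5 and Slc6a6, and the falls those of Slc6a20a, Slc1a1 and Slc7a4. The 2 groups did not overlap for 8 members, or 15.7%, where this held for 21.9% of all genes. The median log2 difference of the tested members was 0, beside 0.02 over all genes. Calls in both directions occurred in the families Slc6a and Slc7a, a single fall in Slc1a and a single rise in Slc43a, and none in the other 4 families. At an unadjusted p under 0.05 stood 18 of the 51 members, where 31.4% of all genes did. The number of rises depended on single arrays. It was 2 without doxycycline 2, without doxycycline 3 or without saline 1, and it was 3 without doxycycline 4 or without saline 3. With values under a common floor raised to it, 2 rises remained. The number of falls was 5 without doxycycline 1 or without saline 4, and between 2 and 3 without any other single array. Slc43a3 and Slc6a20a kept their calls under all 19 alternatives run.

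**Figure D1:**
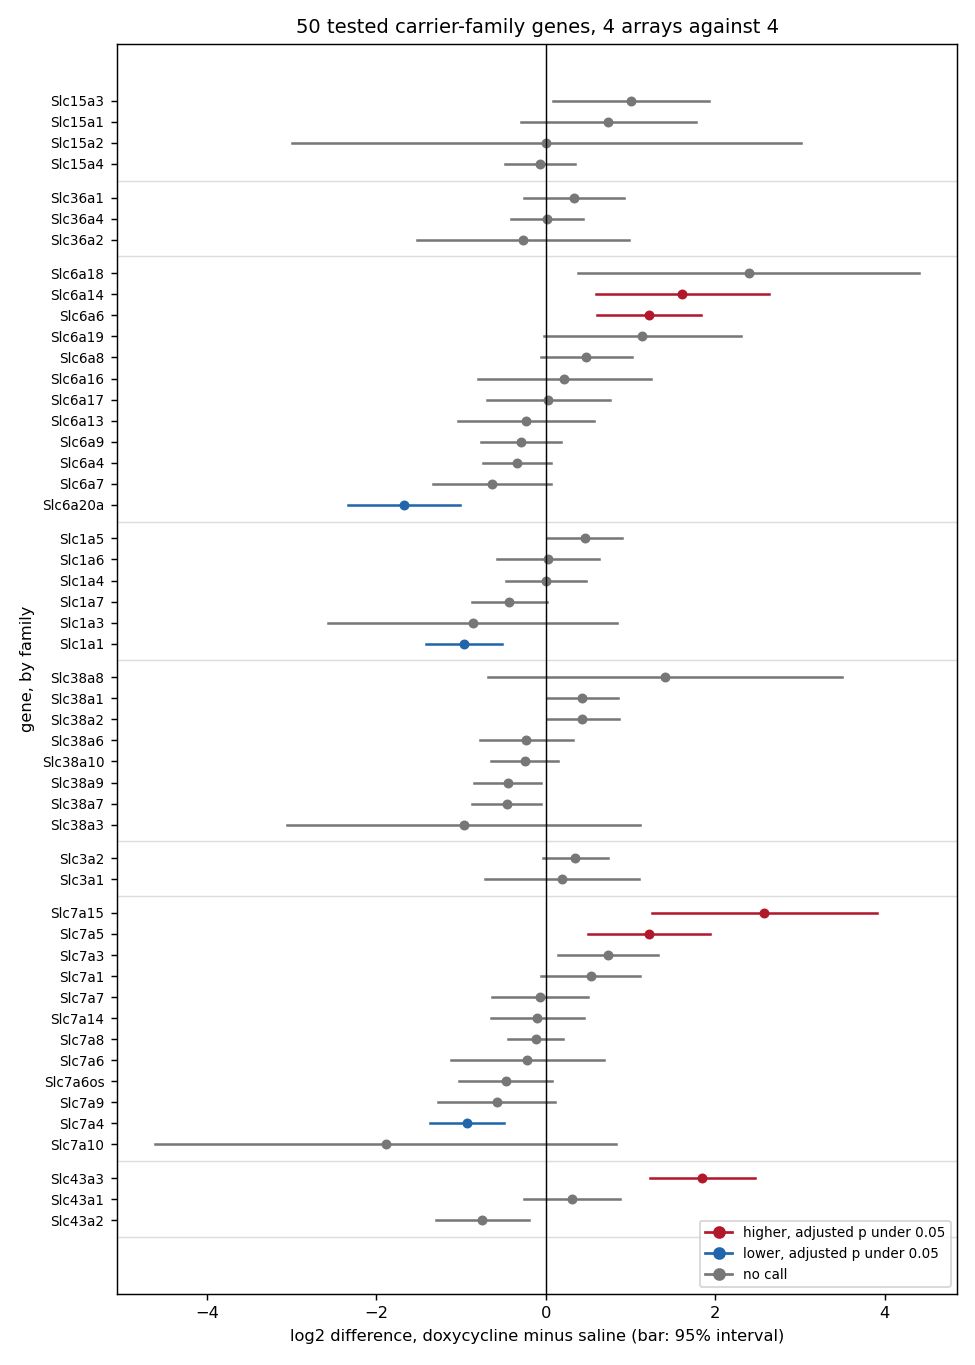
Log2 difference between doxycycline and saline (x axis, doxycycline minus saline) for 50 of the 51 tested members, grouped by family (y axis). Points are limma estimates from 4 arrays a group and bars their 95% intervals, with the 5 members shown that passed the threshold as higher in red, the 3 as lower in blue and the rest in grey, and most families show intervals on either side of 0.

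At the luminal side, 10 of the 11 listed uptake carriers were tested, and 2 rose and 2 fell, with a median log2 difference of 0.40. This is 40% called, where 13.9% of all genes tested were. The list was drawn up with earlier results of these data known. Slc6a14 and Slc6a6 were higher, and Slc6a20a and Slc1a1 were lower.

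Slc6a20a, the carrier of proline and other imino acids, fell on all 4 doxycycline arrays. Its probe (chr9:123546031-123546090, mm9, minus strand) read -0.10, -0.34, 0.17 and 0.11 on doxycycline arrays 1 to 4 and 1.66, 2.17, 1.91 and 0.77 on saline arrays 1 to 4. Every doxycycline array lay below every saline array, the nearest being saline 4. The group means were -0.04 ± 0.23 and 1.63 ± 0.61 (SD, n = 4 each), a 3.18-fold lower level (log2 difference -1.67, SE 0.293, 95% interval -2.33 to -1.01, limma with adjusted p = 0.00811, exact permutation test with p = 0.0286, the smallest that 4 against 4 can give). Intervals given from here on are 95% intervals as well. Over the alternatives the difference ran from -1.95 to -1.47. Its near copy Slc6a20b was not well above background on any array, and how far the probe separates these neighbours was not tested. The first 30 bases of the Slc6a20a probe are shown, 5′ to 3′ as the array files give them, to identify what was measured.
Slc6a20a probe: agtcagccactctgtttcacagtcactgcc

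Slc1a1, the sodium-driven carrier of glutamate and aspartate, fell by 0.97 on the log2 scale, a 1.95-fold lower level (SE 0.198, interval -1.41 to -0.52, limma with adjusted p = 0.0154, exact permutation test with p = 0.0286). The probe (chr19:28988332-28988391, mm9, plus strand) read 3.02, 2.27, 3.03 and 2.90 with doxycycline and 3.93, 3.71, 3.68 and 3.76 with saline. The saline arrays lay close together and above all doxycycline arrays, and doxycycline 2 was the lowest. Without saline 1 the difference was -0.91 and the adjusted p 0.0521. Leaving out saline 2 and saline 4 together, an alternative chosen after seeing the data, gave -1 and 0.0593.

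Slc6a14, a carrier of neutral and cationic amino acids that runs on sodium and chloride, rose 3.06-fold (log2 difference 1.61, SE 0.452, interval 0.59 to 2.64, limma with adjusted p = 0.0464, exact permutation test with p = 0.0286). Its probe (chrX:21318999-21319058, mm9, plus strand) read 1.22, 1.90, 1.30 and 2.09 with doxycycline against 0.01, 0.57, 0.84 and -1.34 with saline. The groups did not overlap, and saline 4 stood well below the other saline arrays. Without saline 4 the rise was 1.16 (adjusted p = 0.0381). The adjusted p lay just under the threshold, and it was 0.0555, 0.0946, 0.0842 and 0.118 without doxycycline 1, 2, 3 and 4 in turn, and 0.101 without saline 1. With a common floor it was 0.0911, and with saline 2 and 4 both left out 0.0771.

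Slc6a6, the taurine carrier, rose 2.32-fold (log2 difference 1.22, SE 0.270, interval 0.61 to 1.83, limma with adjusted p = 0.0208, exact permutation test with p = 0.0286). On the doxycycline arrays the probe (chr6:91708620-91708679, mm9, plus strand) read 5.05, 4.46, 5.49 and 4.41, and on the saline arrays 3.38, 3.56, 3.56 and 4.05. Doxycycline 1 and 3 were the high arrays, and saline 4 was the one saline array near the doxycycline range. The call was lost without saline 1 (1.13, adjusted p = 0.0643) and without saline 3 (1.19, adjusted p = 0.0612).

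**Figure D2:**
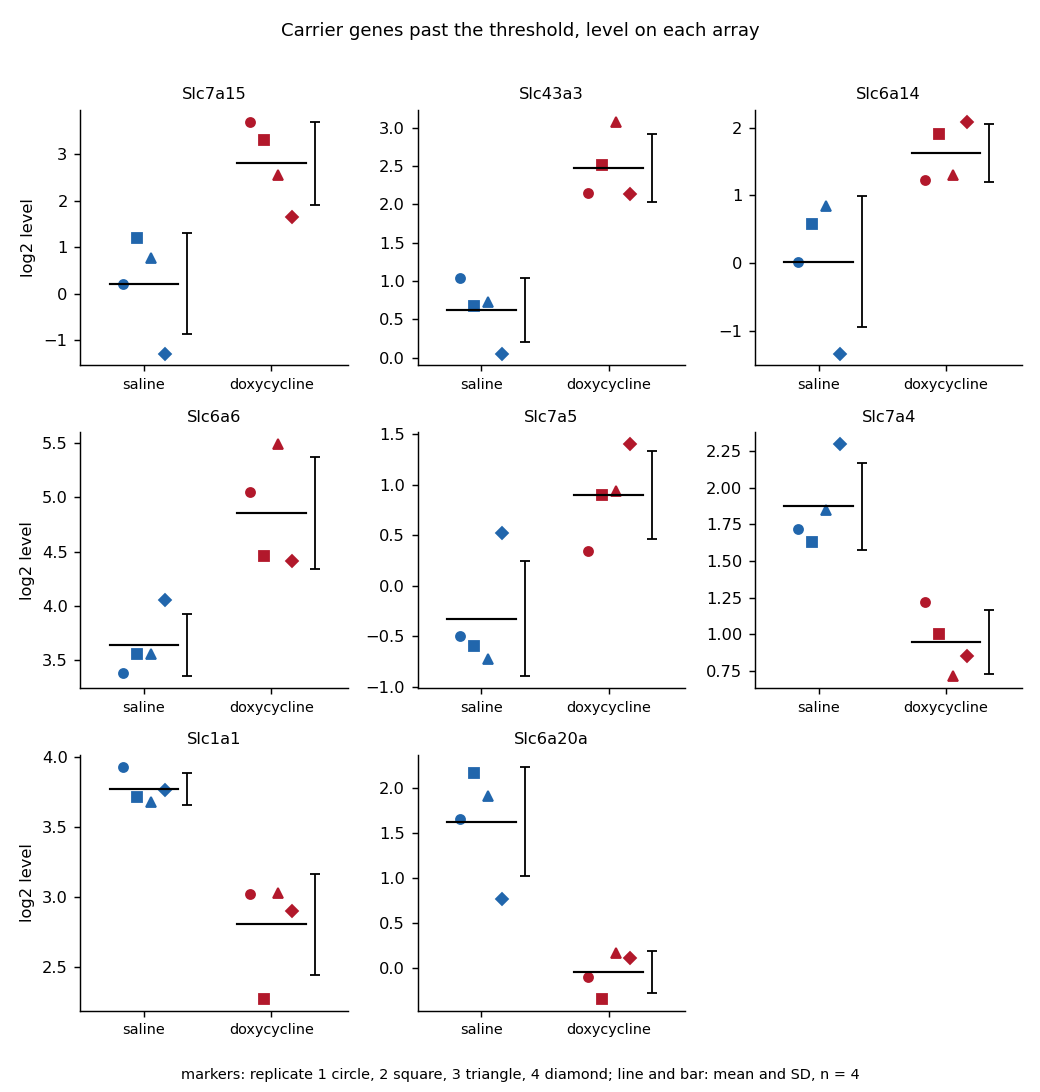
Log2 level (y axis) of 8 of the 9 members past the threshold on each saline and doxycycline array (x axis), with marker shape for the replicate number and a line and bar for the group mean and SD of 4 arrays. The groups are apart for all 8 but Slc7a5, where the highest saline array (0.52) lies above the lowest doxycycline array (0.34).

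The remaining 6 tested luminal carriers did not pass the threshold. Slc15a1, the brush-border carrier of di- and tripeptides, read 2.73, 1.98, 3.13 and 1.69 with doxycycline and 1.94, 2.22, 2.01 and 0.39 with saline (log2 difference 0.74, SE 0.456, adjusted p = 0.302). Slc6a19, the main sodium-driven carrier of neutral amino acids in the gut, read 5.22, 4.66, 4.24 and 3.7 against 3.83, 3.99, 3.67 and 1.77 (1.14, SE 0.514, adjusted p = 0.167). For either gene the doxycycline arrays overlapped the saline arrays, and saline 4 was the lowest of all 8. Without saline 4 the differences were 0.32 (adjusted p = 0.545) and 0.62 (adjusted p = 0.235).

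Slc7a9 and Slc3a1 together form the brush-border exchanger of cystine and cationic amino acids. Slc7a9, the light chain, read 6.20, 6.06, 5.11 and 5.01 with doxycycline and 6.31, 6.32, 6.34 and 5.75 with saline (log2 difference -0.58, SE 0.305, adjusted p = 0.226), and with array weights it passed the threshold as lower (-0.84, adjusted p = 0.0355). Slc3a1, the heavy chain, read 4.65, 4.63, 3.87 and 3.77 against 4.34, 4.59, 4.38 and 2.85 (0.19, SE 0.400, adjusted p = 0.783), and without saline 4 its difference turned to -0.21. Both chains were lower on doxycycline 3 and 4 than on doxycycline 1 and 2. Taken within each array, the log2 ratio of Slc7a9 to Slc3a1 differed by -0.77 between the groups, which did not overlap (exact permutation p = 0.0286, adjusted p = 0.0514 over the 9 ratios computed).

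Slc1a5, an exchanger of glutamine and other neutral amino acids, had a log2 difference of 0.46 (SE 0.195, adjusted p = 0.148), with levels of 3.09, 3.09, 3.59 and 3.1 against 2.51, 2.58, 3.12 and 2.83. Its second probe gave 0.55 (adjusted p = 0.118 in the fit over probes). Slc36a1, a proton-driven carrier of small neutral amino acids found at the brush border and in lysosomes, read -0.09, -0.65, -0.63 and -0.60 against -0.70, -0.64, -0.41 and -1.53 (0.33, SE 0.259, adjusted p = 0.423). In these genes the groups overlapped, and the intervals of the difference (0.01 to 0.90 and -0.26 to 0.92) include rises of nearly a doubling.

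At the basolateral side, 7 of the 8 listed exit carriers were tested. None passed limma's threshold, where 13.9% of all genes did, and the median log2 difference was -0.12. Of these 7, 1 (Slc43a2) had an unadjusted p under 0.05, where 31.4% of all genes did. Slc43a2, a facilitator of large neutral amino acids, read 4.69, 3.79, 3.52 and 3.74 with doxycycline and 4.71, 4.67, 4.69 and 4.66 with saline (log2 difference -0.75, SE 0.244, adjusted p = 0.0733). The saline arrays were nearly equal, 3 doxycycline arrays were lower, and doxycycline 1 lay among the saline values. Without doxycycline 1 the gene passed the threshold as lower (-1, adjusted p = 0.00527), as it did with array weights (-0.88, adjusted p = 0.0122) and without the filter on dim probes (adjusted p = 0.0437).

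Slc7a7 and Slc7a8 are light chains that pair with Slc3a2, the first for cationic and the second for neutral amino acids. Slc7a7 read 6.55, 6.12, 5.70 and 5.39 with doxycycline and 6.20, 5.93, 6.12 and 5.79 with saline, a difference of -0.07 (interval -0.64 to 0.50, adjusted p = 0.874) whose sign changed without doxycycline 3 (0.01) and without doxycycline 4 (0.11). Slc7a8 read 0.95, 0.68, 1.01 and 0.86 against 0.86, 1.02, 1.11 and 1, a difference of -0.12 (-0.44 to 0.20, adjusted p = 0.591). The heavy chain Slc3a2 read 5.12, 4.97, 4.75 and 4.57 against 4.55, 4.62, 4.55 and 4.27, a difference of 0.35 (-0.03 to 0.74, adjusted p = 0.189). Only doxycycline 4 fell within the saline range of Slc3a2. Within arrays, the log2 ratio of Slc7a8 to Slc3a2 differed by -0.48 with no overlap of the groups (exact permutation p = 0.0286, adjusted p = 0.0514), and that of Slc7a7 to Slc3a2 by -0.43 with overlap (adjusted p = 0.0735).

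Slc43a1, a further facilitator of large neutral amino acids, read -0.74, -0.35, -0.68 and -1.08 against -1, -1.57, -0.47 and -1.03 (log2 difference 0.31, adjusted p = 0.445). Slc7a6, a light chain of the cationic exchangers, was dim at -2.34, -1.97, -3.98 and -2.78 against -2.74, -2.91, -2.16 and -2.39 (-0.22, adjusted p = 0.750), and the sign changed without doxycycline 3 (0.19). Slc38a3, a carrier of glutamine and histidine, was low on 7 arrays and high on 1, with -3.71, -3.28, -3.64 and -3.90 on the doxycycline arrays and 0.66, -3.71, -4 and -3.58 on the saline arrays. Its difference of -0.97 (adjusted p = 0.511) rested on saline 1, and without that array it was 0.13 (adjusted p = 0.729). Slc38a5 was not well above background on any array.

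**Figure D3:**
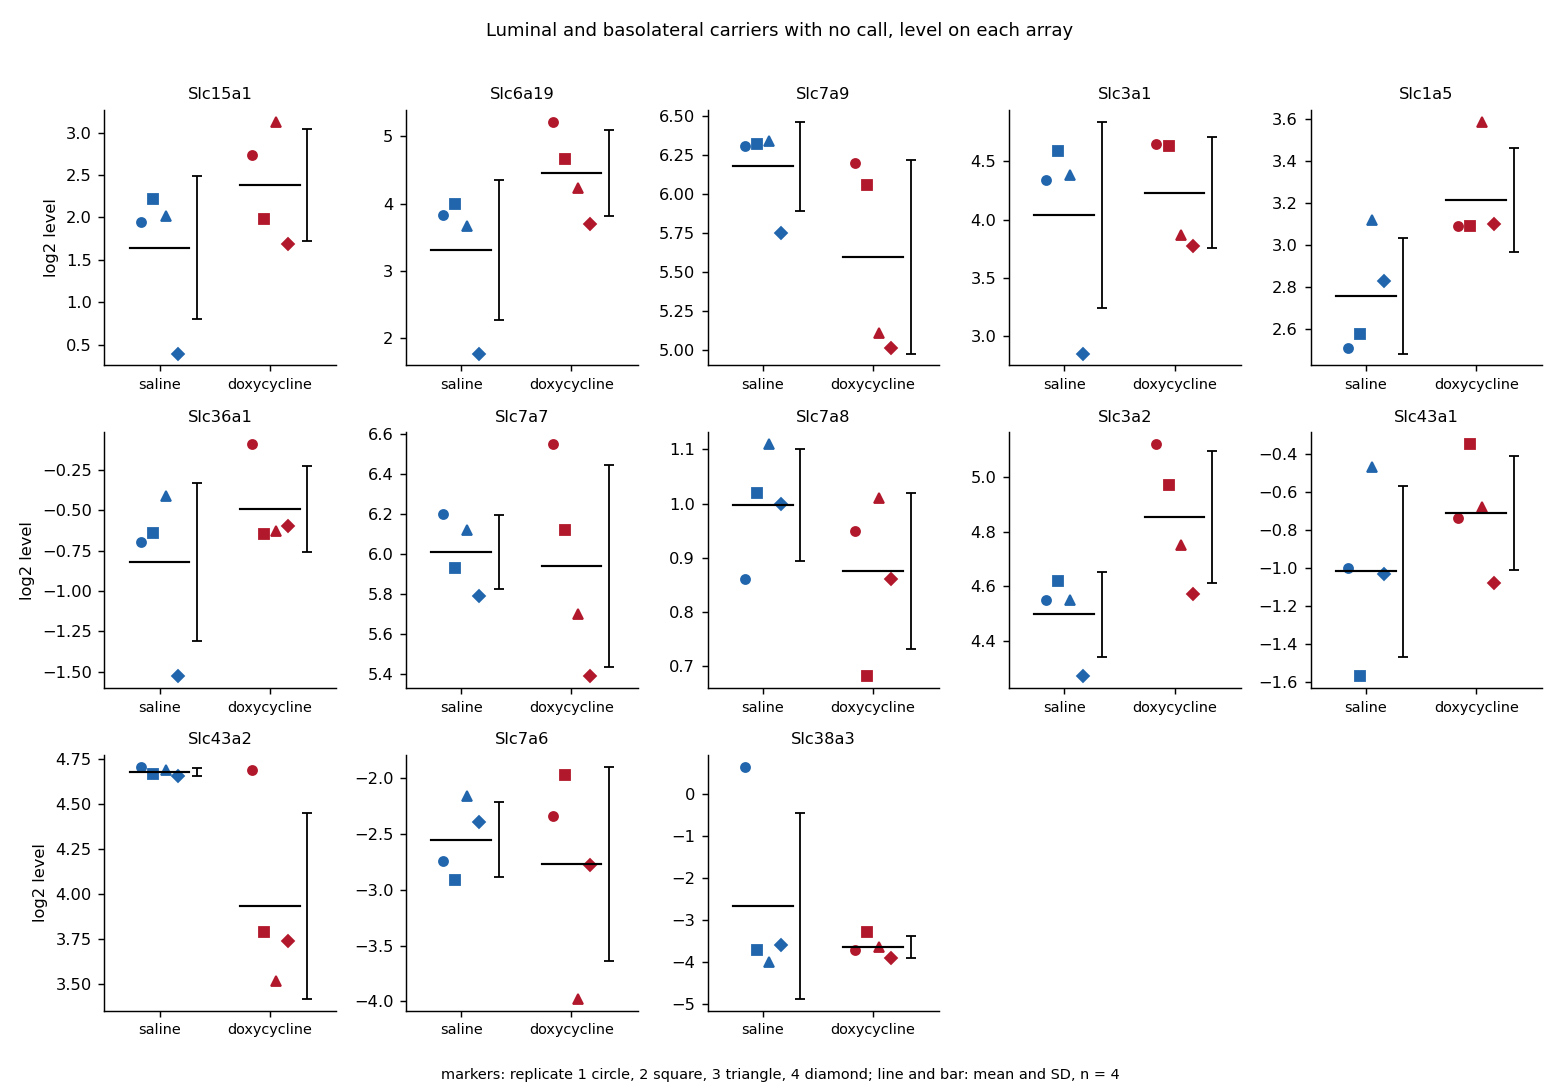
Log2 level (y axis) of the 13 tested luminal and basolateral carriers that did not pass the threshold, on each saline and doxycycline array (x axis), with marker shape for the replicate number and a line and bar for the group mean and SD of 4 arrays. Saline 4 (blue diamond) lies lowest of its group for Slc15a1, Slc6a19, Slc7a9 and Slc3a1 but not for Slc7a8 or Slc43a1, and saline 1 alone is high for Slc38a3.

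The spread within each group ran partly along the arrays. Of the 17 tested luminal and basolateral carriers, 10 were lowest of their group on saline 4 and 9 on doxycycline 4, and the same 2 arrays were lowest of their groups for 11 and 9 of the 12 enterocyte markers. The mean level of the 12 enterocyte markers was 5.57, 5.34, 5.42 and 5.07 with doxycycline and 4.94, 5.36, 5.74 and 3.83 with saline. In tissue RNA, fewer cells of a type and less RNA per cell cannot be told apart. Markers of other cells also moved between the groups (over all genes tested, 5.94% rose and 7.91% fell). Of 7 goblet cell markers 6 fell (mean level over the list 6.30 to 6.89 with doxycycline, 7.84 to 8.14 with saline), as did 4 of 7 tested enteroendocrine markers (1.57 to 2.62 against 3.19 to 3.52) and 4 of 5 stem cell markers (0.71 to 1.17 against 2.15 to 2.63). The 4 tested neutrophil markers held 2 rises (0.82 to 2.25 against -0.38 to 0.76), and the 5 tested endothelial markers held 1, Lyve1 (1.23 to 1.32 against 0.31 to 0.80). Single calls occurred in further lists, with falls of Alas2 among 3 tested erythroid markers (list mean -1.29 to -0.32 against 0.09 to 2.22), Kit among 4 mast cell markers, Adgre1 among 7 macrophage and dendritic markers and Jchain among 7 B and plasma cell markers, and a rise of Pdgfra among 6 fibroblast markers. The B and plasma cell list averaged 2.57 to 3.86 with doxycycline and, with saline, 4.07 on array 2 and 1.28 to 1.83 on the others. The part of these shifts in the carriers' differences was not tested.

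Slc43a3 showed the rise with the smallest adjusted p among the members. Although its family is named for amino acid carriers, it is best known as a carrier of purine nucleobases. The probe (chr2:84797987-84798046, mm9, plus strand) read 2.15, 2.51, 3.08 and 2.14 with doxycycline and 1.04, 0.67, 0.73 and 0.05 with saline. All doxycycline arrays lay more than a doubling above the highest saline array. The group means were 2.47 ± 0.44 and 0.62 ± 0.41 (SD, n = 4 each), a 3.60-fold higher level (log2 difference 1.85, SE 0.275, interval 1.23 to 2.47, limma with adjusted p = 0.00392, exact permutation test with p = 0.0286). Over the alternatives the rise ran from 1.59 to 1.99. It was thus unlike Slc43a1 and Slc43a2 in passing the threshold, though the differences between the 3 family members were not tested. The first 30 bases of the probe identify the stretch that was measured.
Slc43a3 probe: tttgatgatccagtatctacaaagactgcc

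Slc7a15 had the largest log2 difference of the 9 called members. It encodes a carrier that prefers aromatic amino acids and is found in the small intestine of the mouse. Its brightest probe read 3.69, 3.30, 2.56 and 1.65 with doxycycline and 0.20, 1.2, 0.77 and -1.29 with saline. The groups did not overlap, and array 4 was the lowest in either group. The means were 2.80 ± 0.90 and 0.22 ± 1.09 (SD, n = 4 each), a 5.98-fold higher level (log2 difference 2.58, SE 0.589, interval 1.25 to 3.91, limma with adjusted p = 0.0227, exact permutation test with p = 0.0286). The call was lost without doxycycline 2 (2.41, adjusted p = 0.0543), without doxycycline 3 (2.66, 0.0549), without saline 1 (2.57, 0.0599) and with a common floor (0.0535).

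The array holds 3 probes for Slc7a15, all on the minus strand of chromosome 12 (mm9), and 2 of the 3 passed the threshold. The first 30 bases of each probe are given below, 5′ to 3′, from the 3′-most probe of the gene to the 5′-most, because the size of the rise depends on which of them is read.
Slc7a15 probe at chr12:8535289-8535348: tatggcttgaagctgcctatttgcttgaac
Slc7a15 probe at chr12:8536193-8536252: ttcctgcttttccacttccagtgtcagttc
Slc7a15 probe at chr12:8545247-8545306: aatactgaagtctgcaagaggggaattatt

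The first of these is the brightest one described above. The middle probe read 1.68, 1.10, 1.69 and 0.21 with doxycycline and -2.87, -2.13, -1.96 and -4.64 with saline, a difference of 4.07 (SE 0.588, adjusted p = 0.00378 in the fit over all 28626 probes kept). Only 2 of the 4 saline arrays measured it well above background, so the size of that rise is uncertain. The probe toward the 5′ end read 1.77, 1.15, -0.02 and -1.02 against 0.30, 0.12, 0.21 and -2.30, and its difference of 0.89 did not pass the threshold (SE 0.731, adjusted p = 0.447). Here doxycycline 1 and 2 were high while doxycycline 3 and 4 lay below 3 of the 4 saline arrays. Within arrays, the log2 ratio of the 3′-most probe to the 5′-most was higher with doxycycline by 1.69 and that of the middle probe to the 5′-most by 3.18. In each case the groups did not overlap (exact permutation p = 0.0286, adjusted p = 0.0514 over 9 ratios). The exact p is the smallest the design can give, and after adjustment it fell short of the threshold. The ratios were computed because the probes disagreed in these same arrays, so the p-values are no separate support for an unequal change.

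**Figure D4:**
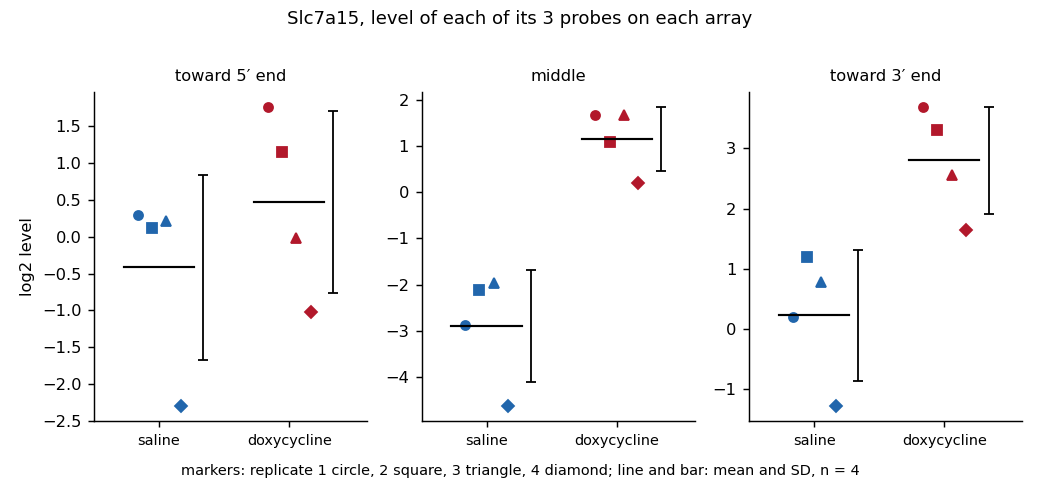
Log2 level (y axis) of the 3 Slc7a15 probes, ordered from the 5′ to the 3′ side of the gene, on each saline and doxycycline array (x axis), with marker shape for the replicate number and a line and bar for the group mean and SD of 4 arrays. The groups are apart for the middle probe and the probe toward the 3′ end and overlap for the probe toward the 5′ end, and replicate 4 is the lowest of its group for all 3 probes.

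RefSeq (GRCm38.p6) lists 2 transcription starts for Slc7a15. The 250 bases before each start are printed because the probes along the gene gave differences of unequal size. The array's positions are in mm9 and these windows in GRCm38.p6, so the probes were not placed relative to the starts.
Slc7a15 upstream window, chr12:8599067-8599316, minus strand: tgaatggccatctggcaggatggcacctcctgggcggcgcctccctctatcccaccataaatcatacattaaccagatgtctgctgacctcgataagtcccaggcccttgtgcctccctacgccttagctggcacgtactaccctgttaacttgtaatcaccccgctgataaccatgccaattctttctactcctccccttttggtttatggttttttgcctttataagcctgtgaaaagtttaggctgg
Slc7a15 upstream window, chr12:8539567-8539816, minus strand: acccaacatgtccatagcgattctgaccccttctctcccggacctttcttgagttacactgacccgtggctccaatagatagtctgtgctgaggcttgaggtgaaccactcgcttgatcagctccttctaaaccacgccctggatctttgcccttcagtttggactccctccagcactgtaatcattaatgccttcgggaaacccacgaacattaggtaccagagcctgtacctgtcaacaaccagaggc

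Neither window holds the composite site of ATF4 and C/EBP (TGATGNAA), the STAT palindrome (TTCNNNGAA) or a site of HNF4A (CAAAGTCCA) on either strand, and no base is therefore set in capitals. Of the 9 called members, 4 (Slc1a1, Slc6a14, Slc6a20a and Slc7a15) had such windows in the RefSeq table, and 0 of their 5 windows held any of these motifs. Over 50 members with 70 windows, 4.29% held TGATGNAA, 7.14% TTCNNNGAA and 1.43% CAAAGTCCA, where the shares over all 32851 windows were 3.45%, 7.02% and 0.384%. The last share of members is a single window. These letters may lie outside the windows, and a match would not by itself be a site.

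Slc7a5, the exchanger of large neutral amino acids that dividing and activated cells use for leucine, rose 2.33-fold (log2 difference 1.22, SE 0.317, interval 0.50 to 1.94, limma adjusted p = 0.0356). Its brighter probe (chr8:124405136-124405195, mm9, minus strand) read 0.34, 0.90, 0.94 and 1.4 with doxycycline and -0.50, -0.60, -0.72 and 0.52 with saline. Saline 4 lay above doxycycline 1, so the groups overlapped (exact permutation p = 0.0571). Without saline 4 the rise was 1.5 (adjusted p = 0.00902). Leaving out any of 6 arrays ended the call, with adjusted p values of 0.0683, 0.0892 and 0.0926 without doxycycline 2, 3 and 4, and of 0.0934, 0.0681 and 0.0993 without saline 1, 2 and 3. A common floor ended it too (adjusted p = 0.0651). Its log2 ratio within arrays to its partner chain Slc3a2 differed by 0.87 (adjusted p = 0.161), and that to Slc7a8, another light chain of Slc3a2, by 1.35 (adjusted p = 0.0735). The second Slc7a5 probe gave 0.94 without a call (limma adjusted p = 0.143 in the fit over probes). Only 1 of the 4 saline arrays measured that probe well above background.

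Slc7a5 belongs to a list of 10 carriers known as targets of ATF4, the transcription factor of the integrated stress response that raises amino acid uptake and synthesis when amino acids run short. Of the 9 that were tested, 1 rose and 0 fell (11.1% called, against 13.9% of all genes). Besides the called one, 4 of the 9 had an unadjusted p under 0.05, a level that 31.4% of all genes reached. The median log2 difference of the 9 was 0.43 beside 0.02 over all genes. The sodium-driven glutamine carriers Slc38a1 and Slc38a2 each had a difference of 0.43 (adjusted p = 0.144 and 0.149) and passed the threshold with normexp background correction. Slc7a1, the main carrier of arginine and lysine in most cells, had 0.53 (adjusted p = 0.191). Slc7a3, a related cationic carrier, gave no call (adjusted p = 0.0952), and no saline array measured it well above background. With array weights Slc38a1 (0.53, adjusted p = 0.0282) and Slc7a1 (0.67, adjusted p = 0.0287) passed the threshold, as did Slc7a1 without saline 4 (0.75, adjusted p = 0.0400). Slc7a3 passed it too with array weights (adjusted p = 0.0297), with the same limit on its saline arrays. The dimmer Slc38a1 probes gave 0.69 and 0.18 without a call (adjusted p = 0.150 and 0.541 in the fit over probes). Slc1a4 (0, adjusted p = 0.999) and the glycine carrier Slc6a9 (-0.29, adjusted p = 0.377) gave no call. Slc7a11, the cystine and glutamate exchanger, was well above background on too few arrays to be tested.

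Further genes of the same pathway, which are not carriers, were read from a list of 28. Over all genes tested, 5.94% were called higher and 7.91% lower. Of the 27 tested on this list, 7 rose and 1 fell, with a median log2 difference of 0.45. The serine synthesis enzymes Phgdh (4 ± 0.31 against 2.32 ± 0.20, SD, n = 4 each, log2 difference 1.68, adjusted p = 0.00124) and Psat1 (3.77 ± 0.11 against 2.14 ± 0.27, 1.63, adjusted p = 8.06e-04) were among them. The stress cytokine Gdf15 (1.25 ± 0.53 against -1.35 ± 0.33, 2.60, adjusted p = 9.18e-04) and the mitochondrial serine enzyme Shmt2 (2.69 ± 0.15 against 1.49 ± 0.38, 1.2, adjusted p = 0.00728) rose as well. The fall was that of Eif2ak3 (-0.50, adjusted p = 0.0499). Most of the 27 gave no call, among them Atf4 itself (0.19, adjusted p = 0.583) and Ddit3 (0.06, adjusted p = 0.912). Among 22 tested genes of amino acid sensing by mTORC1, the growth kinase complex that lysosomal amino acids activate, 0 rose and 2 fell. These were Lamtor2, a subunit of the lysosomal anchor (-0.99, adjusted p = 0.0113), and Nprl2, a subunit of an inhibitory complex (-0.90, adjusted p = 0.0279).

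Slc7a4, a member of the cationic family by sequence whose transport activity is not well established, fell by 0.93 on the log2 scale, a 1.90-fold lower level (SE 0.194, interval -1.37 to -0.49, limma with adjusted p = 0.0167, exact permutation test with p = 0.0286). The probe (chr16:17573049-17573108, mm9, minus strand) read 1.22, 1, 0.71 and 0.85 with doxycycline and 1.72, 1.63, 1.85 and 2.30 with saline. All doxycycline arrays lay below all saline arrays. The call was lost without doxycycline 3 (-0.85, adjusted p = 0.0533) and without saline 3 (-0.93, adjusted p = 0.0505). Of the 3 tested members of the cationic list it was the only one called. The second Slc7a4 probe was well above background on no array.

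The serotonin carrier Slc6a4, which enterocytes use to clear serotonin, read 1.61, 1.32, 0.90 and 1.14 against 1.55, 1.58, 1.70 and 1.49 (-0.34, adjusted p = 0.223).

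Slc6a18, a carrier of neutral amino acids that is a close relative of Slc6a19, has 2 probes, and is described here because of its values. Its brighter probe (chr13:73799346-73799405, mm9, minus strand) read 1.15, -0.17, -2.26 and -3 with doxycycline and -3.63, -2.32, -3.15 and -4.76 with saline (log2 difference 2.40, SE 0.892, adjusted p = 0.105). On 1 of the 4 saline arrays it was well above background, and the doxycycline arrays spanned a wide range, with arrays 1 and 2 high. No saline array measured the dimmer probe well above background, so no difference is given for it.

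The lysosomal and endosomal carriers gave no call by limma among 7 tested (median log2 difference -0.07), with 3 of the 7 at an unadjusted p under 0.05 (31.4% of all genes). Slc38a9, which senses arginine for mTORC1, had -0.45 (adjusted p = 0.115) and Slc38a7, the lysosomal glutamine carrier, -0.46 (adjusted p = 0.115). Without saline 4 they passed the threshold as lower (-0.56, adjusted p = 0.0460, and -0.60, adjusted p = 0.0309), and so they did with array weights (-0.56, adjusted p = 0.0193, and -0.61, adjusted p = 0.0121). For Slc38a9 these values come from the brightest of 3 probes. The next gave 0.05 (adjusted p = 0.918 in the fit over probes), with 2 saline arrays well above background. No saline array measured the dimmest well above background. The peptide and histidine carrier Slc15a3, found in immune cells, had 1.01 (adjusted p = 0.127) and passed the threshold without saline 2 (1.34, adjusted p = 0.0408) and with array weights (1.09, adjusted p = 0.0436). Its relative Slc15a4 had -0.07 (interval -0.48 to 0.34, adjusted p = 0.831). None of the 4 tested proton-coupled peptide carriers passed limma's threshold, and 1 of these 4 had an unadjusted p under 0.05 (31.4% of all genes). Among the 13 glutamine and small neutral carriers, 10 were tested with 0 calls by limma, and 5 of these 10 had an unadjusted p under 0.05, against that same 31.4%. They did not share a direction, as Slc1a5, Slc38a1 and Slc38a2 had positive differences and Slc38a7 and Slc38a9 negative ones. Slc38a7 and Slc38a9 are also counted among the lysosomal carriers above.

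Peptides reach these carriers after cutting by peptidases. Of 12 tested brush-border and luminal peptidases 0 rose and 1 fell, Ggt1, which cleaves glutathione (2.05 ± 0.44 against 3.14 ± 0.38, SD, n = 4 each, log2 difference -1.09, adjusted p = 0.0300), and the median log2 difference of the list was -0.32. Of 9 tested peptidases within the cell 0 rose and 1 fell, Dpp7 (-0.70, adjusted p = 0.0170), with a median of -0.48. Over all genes tested 5.94% rose and 7.91% fell. Of 10 tested amino acid carriers of other families 1, the mitochondrial aspartate and glutamate carrier Slc25a12, rose (0.92, adjusted p = 0.0186).

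Carriers listed for the luminal side passed the threshold in both directions. Within arrays, the log2 ratio of the neutral amino acid carrier Slc6a19 to the imino acid carrier Slc6a20a was higher with doxycycline by 2.81. It was 5.32, 5, 4.07 and 3.59 on doxycycline arrays 1 to 4 and 2.17, 1.82, 1.75 and 1 on saline arrays 1 to 4. The groups did not overlap (exact permutation p = 0.0286, adjusted p = 0.0514 over 9 ratios), and the lowest doxycycline array exceeded the highest saline array. The pair joins a called fall (-1.67) to a difference of 1.14 without a call. The adjustment does not cover how the pair was chosen, so these p-values add no separate support. These ratios compare changes of 2 probes and say nothing of which gene is the more abundant.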

How the data were processed

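RNA from mouse ileum (200 ng per labelling) was hybridised to 8 one-colour Agilent arrays, 4 per group. The scanner files the authors deposited hold linear spot intensity. Per the submitters' processing notes, Agilent Feature Extraction 10.7.3.1 was used. The processed intensity is background-subtracted and detrended per the file headers. The deposited value table holds log2 values, which differed from the log2 processed intensity by a constant per array. It served as an alternative. Control spots and spots marked as outliers were left out, spots of a probe were averaged, and each array's 75th percentile was subtracted from the log2 processed intensity. A gene's brightest probe was tested when well above background on at least 4 of 8 arrays. Group differences were fitted in R 4.3.3 with lmFit and eBayes of limma 3.58.1 (two-sided, Benjamini-Hochberg over 21342 genes, threshold 0.05), and single values with an exact two-sided permutation test. Second probes come from the same fit over 28626 probes. Errors beside means are SD (n = 4) and beside differences SE. The number of arrays limits the precision.

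Members and lists were chosen with earlier results of these data known. Values are given for all members past the threshold and for the luminal and basolateral carriers, and other members are counted or named. One member past the threshold is in the counts and is not reported here. Genes outside the families come from fixed lists, at most 4 of a list, by smallest p. From the ATF4 list Atf4, Ddit3 and Eif2ak3 are named in addition. Of 69 members, 67 matched RefSeq (GRCm38.p6) by accession with 0 changed symbols. Positions of probes are as the array files give them (mm9), and exons and untranslated regions were not analysed here. The fit was checked on simulated data. Alternatives covered normalization (quantile, or the median of probes above background on all arrays), normexp background (offset 50), a common floor, filters, averaging of probes, array weights, a replicate block and each array left out. Over all genes tested, deviations from the group mean on arrays of the same replicate number correlated at -0.04 to 0.11. Whether the members described share an effect of replicate number or slide column was not tested.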

Additional observations from a re-analysis of the deposited data

Results flagged for a closer look

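For each of the 51 tested members, the 4 arrays of each group were searched for one that stood apart, by the gap to its nearest neighbour as a share of the group's range. Of 102 groups, 17 exceeded Dixon's critical value for 4 samples, where chance gives about 1 in 20. Saline 4 stood apart for Slc15a1 (gap share 0.847), Slc6a19 (0.854), Slc3a1 (0.856), Slc7a9 (0.954) and Slc38a7 (0.932), where it was the lowest of its group, and for Slc38a1 (0.862), where it was the highest. The first 4 of these are luminal carriers, and the enterocyte markers were at their lowest on the same array (mean level 3.83). Whether the carriers follow from that was not tested.

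Saline 1 stood apart for Slc38a3 (0.911), read at 0.66 where the other saline arrays lay at -4 to -3.58, and for the dim Slc1a6 (0.891). Saline 2 was apart for Slc38a2 (0.901) and Slc38a8 (0.836), and saline 3 for Slc36a4 (0.931). On the doxycycline side, array 1 was apart for Slc36a1 (0.903) and Slc38a2 (0.872), array 2 for Slc1a1 (0.831), and array 3 for Slc1a5 (0.976), Slc6a16 (0.963) and Slc7a3 (0.839). Of these genes Slc1a1 was the only one called. With the single low array, doxycycline 2, left out, its call was kept.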

How the results depend on the processing

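Of the 9 calls, 9 were kept with quantile normalization, the median of probes above background, the mean of the kept probes, no filter and the deposited value table, 8 with normexp background, the filter on all 8 arrays and array weights, and 5 with a common floor or a replicate block. The number of members higher was 2 with a common floor, 3 with a replicate block, 7 with normexp, 9 with array weights and 2 to 6 when one array was left out. The number lower was 16 with no filter, 8 with array weights and 2 to 5 when one array was left out. Without a filter the members' median was -0.22, where that of all genes was -0.33, and with saline 2 and 4 both left out, chosen after seeing the data, it was -0.09. The cause of these shifts was not tested, except that without a filter 18 dim members enter the fit. The members called lower only without a filter, apart from Slc43a2, were well above background on no array. Their differences lie under the level that either group could measure and are not read as falls.

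With the replicate number as a replicate block, the adjusted p was 0.0626 for Slc6a6, 0.0576 for Slc7a4 and 0.0938 for Slc6a14. These calls and 1 other were lost, and 786 and 906 genes of the whole array were higher and lower in place of 1268 and 1689. The block raised the SE of Slc6a6 (0.270 to 0.296), Slc7a4 (0.194 to 0.216) and Slc6a14 (0.452 to 0.478). It lowered that of Slc7a15 (0.589 to 0.313), Slc6a19 (0.514 to 0.272) and Slc15a1 (0.456 to 0.287). Of the 13 luminal and basolateral carriers without a call, 4 changed sign under some alternative. They were Slc3a1 (-0.19 with array weights, -0.13 with saline 2 and 4 both left out, -0.21 to 0.37 when one array was left out), Slc7a7 (0.12 with normexp, -0.28 to 0.11 when one array was left out), Slc7a6 (0.06 with a common floor, -0.48 to 0.19) and Slc38a3 (-1.42 to 0.13). Of the 29 other members without a call, 9 did. The saline arrays measured fewer dim probes, which limits what can be said of members under about -2.57.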
